A study of Mus musculus with 12 samples.

Results

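The AP-1 transcription factor genes were followed through 12 RNA-seq libraries of sorted mouse bone marrow progenitors. The group was chosen by name: all 10 listed genes (Fos, Fosb, Fosl1, Fosl2, Jun, Junb, Jund, Atf3, Batf and Batf3) were found among the 23386 genes joined over the 12 count files. All mice were C57BL/6. They either lacked both copies of the +42 kb enhancer of Cebpa (genotype given as -/-, here enhancer-null) or were wild type at it. The product of Cebpa, C/EBPα, is a master regulator of the granulocyte and monocyte lineages. Each genotype gave 3 libraries of common myeloid progenitors (CMP) and 3 of the LSK fraction, which is sorted as cells without lineage markers but with Sca-1 and Kit and includes the stem cells. The labels call the LSK samples hematopoietic stem cells, the series design calls them stem and progenitor cells, and the sources used here do not give the age of the mice. The labels name no Cre or conditional allele, and do not say whether the replicates came from separate animals, so p-values measure only the spread between these libraries. Library numbers are those of the labels: 1, 2 and 7 among enhancer-null samples, and 1, 6 and 8 among wild-type samples.

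AP-1 factors are basic leucine zipper proteins that bind DNA only as dimers. Fos proteins need a Jun partner, whereas Jun proteins can also pair with each other, and ATF3 and the BATF proteins join the same network. Fos, Jun, Junb and Atf3 are immediate early genes: growth factor, cytokine and stress signals that run through the MAP kinases switch them on within minutes, without new protein synthesis. In the hematopoietic system JunB is known for restraining the expansion of stem cells and myeloid cells, and c-Jun is known as a partner of PU.1 in monocyte development.

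Each library held between 6170491 and 49149674 gene counts, of which the 10 members took 0.159% to 0.904%. Cebpa held 544, 270 and 463 counts in wild-type CMP and 0, 3 and 0 in enhancer-null CMP, and 226, 118 and 39 counts in wild-type LSK against 1, 0 and 15 in enhancer-null LSK. These counts followed the labels. Ly6a, which encodes Sca-1, stood at 152 ± 20.7 CPM in wild-type and 177 ± 30.3 in enhancer-null LSK, and at 4.82 ± 1.32 and 7.31 ± 6.5 in wild-type and enhancer-null CMP (mean ± SD, n = 3 in every group throughout; CPM are counts scaled to library size with TMM factors). Some other progenitor markers lay further apart between the CMP groups. Flt3 stood at 428 ± 148 CPM in wild-type and 69.6 ± 39.5 in enhancer-null CMP. Cd34 stood at 806 ± 75.2 and 388 ± 99.6 CPM, and Kit at 345 ± 88.2 and 586 ± 125 CPM. Of 10 such markers, Ly6a among them, 7 had negative and 3 positive log2 fold changes in CMP (median −0.95). None of these passed edgeR's test there. By Xist and Y-linked genes, the male libraries were numbers 1 and 2 of the enhancer-null and number 1 of the wild-type samples in either gate, and the remaining ones were female, which left the genotypes unbalanced for sex. Wild-type CMP replicate 6 came with 23456 listed symbols, and each of the other 11 with 24420. Without it 7 genes were called between genotypes in CMP, in place of 62. The drop was not particular to replicate 6, since leaving out wild-type CMP replicate 8 also gave 7 and replicate 1 gave 13. Of the 8 AP-1 and list genes called in CMP with replicate 6, Ier3 (adjusted p = 0.0180) and Cpa3 (0.0223) kept the call without it. Of 27 such genes called in the wild-type step from LSK to CMP, 12 kept it, among them Junb, Egr1, Ier2, Nr4a1, Dusp2, Hspa8, Hspd1, Ly6a, Mpo, Csf1r and Ms4a6c. Of 8 called for the difference of genotype effects between the gates, Mpo kept it. The direction of each of these differences was the same without this library (edgeR, Benjamini-Hochberg adjustment over all genes).

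Levels of different members were compared per kilobase of exon. In wild-type LSK the order was Fos (894 ± 361 CPM per kb), Junb (540 ± 29.3), Jund (538 ± 211) and Jun (527 ± 310), and in wild-type CMP it was Fos (326 ± 159), Jun (263 ± 85.5), Jund (203 ± 42.2) and Junb (118 ± 36.1). Between neighbours in these orders, only Jund and Junb in wild-type CMP stood further apart than their SDs reached, a gap that was gone when levels were taken over the longest transcript. In enhancer-null LSK the order was Fos (632 ± 150 CPM per kb), Junb (599 ± 88.9), Jun (498 ± 140) and Jund (479 ± 91.6), again with overlapping SDs. In enhancer-null CMP it was Jund (445 ± 42.0 CPM per kb), Jun (440 ± 164), Junb (380 ± 61.8) and Fos (280 ± 125). Fos thus had the highest mean per length in the other groups and the lowest of these 4 genes in enhancer-null CMP. The order depended in part on the length used: over the longest transcript instead of all exons, Junb stood at 762 ± 113 CPM per kb in enhancer-null LSK and at 484 ± 78.7 in enhancer-null CMP, which put it first in both. The remaining members were far lower on the same scale. Fosb, a Fos relative with a strong activation domain, reached 42.4 ± 34.8 CPM per kb in wild-type LSK, Batf 13.5 ± 1.26, Atf3 11.2 ± 10.8 and Fosl2 2.82 ± 1.72. Fosl1 had at most 12 counts in any library and Batf3 at most 18, both too few to be tested, so that 8 of the 10 members entered each comparison.

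**Figure D1:**
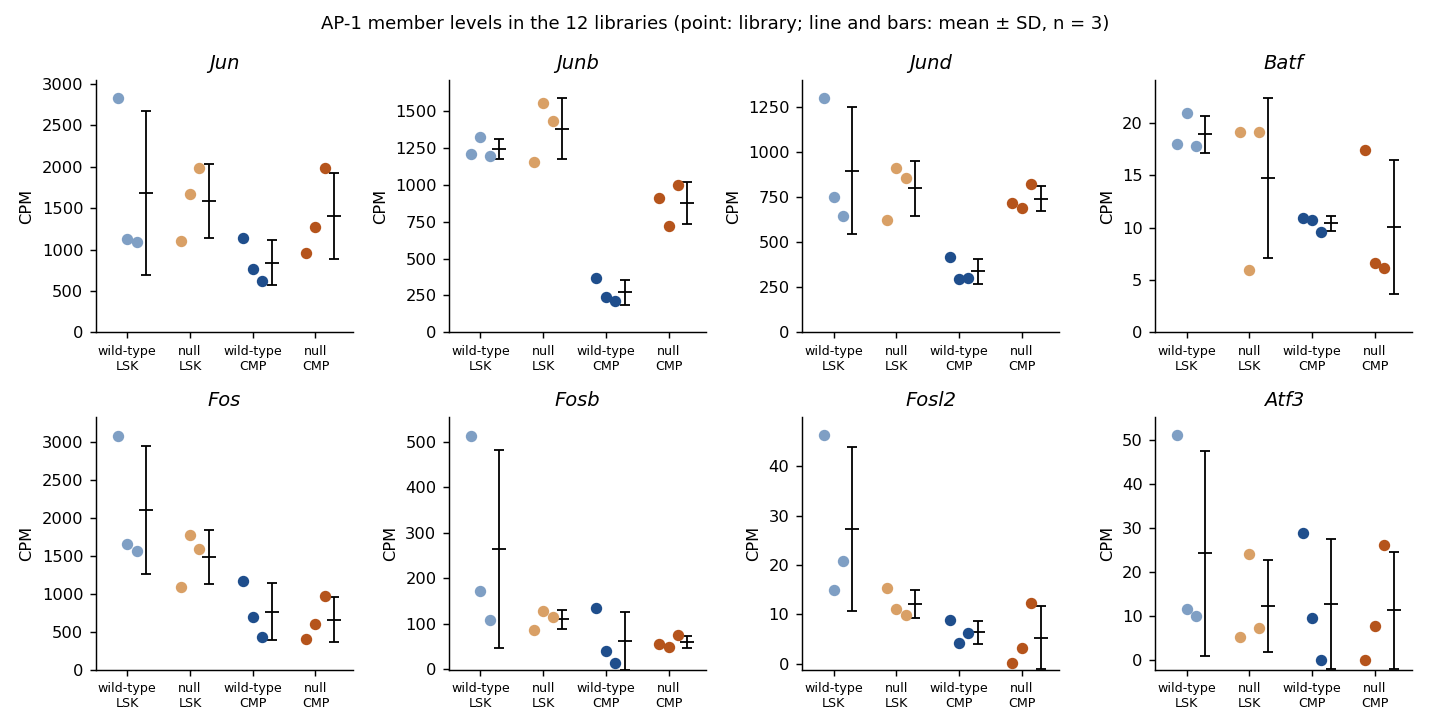
Level (CPM, linear axis from 0 or below the lowest error bar) of the 8 tested AP-1 members in each library, as points in the order of replicate number, with the mean and SD of each group of 3 libraries beside them. Junb lies between 210 and 366 CPM in wild-type CMP and from 719 to 997 in the enhancer-null libraries, while replicate 1 of wild-type LSK is the highest library of the 12 for Fos, Fosb, Fosl2, Jun, Jund and Atf3.

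The first comparison asked how the AP-1 genes stood in CMP that lack the enhancer, at the stage before granulocytes and monocytes are formed. Junb rose there, Jund lay on the threshold of the test, and the Fos genes gave no call. Junb levels were 910, 719 and 997 CPM in the enhancer-null CMP libraries 1, 2 and 7, as against 366, 239 and 210 CPM in the wild-type libraries 1, 6 and 8. The lowest enhancer-null library stood above the highest wild-type library. The group means were 875 ± 142 and 272 ± 83.0 CPM, a log2 fold change of 1.69 (SE 0.24, 95% interval 1.12 to 2.25, 3.22-fold, adjusted p = 0.0359, edgeR quasi-likelihood test with Benjamini-Hochberg adjustment over all genes). Junb was the 1 of 8 tested members that passed. Over all 11723 genes tested 0.529% passed, and 0.435% passed with a higher level. The test lost this call when some libraries were left out. Dropping wild-type replicate 1 gave an adjusted p of 0.0311, and dropping any other single library gave 0.0516 to 0.202 (0.174 for wild-type replicate 6), while the log2 fold change stayed between 1.51 and 1.94. With sex as a covariate it was 1.65 (adjusted p = 0.0739). Within males the levels were 910 and 719 against 366 CPM, and within females 997 against 239 and 210 CPM. In bulk RNA of sorted cells, a change in the make-up of the gate and a change in RNA per cell cannot be told apart.

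JunD, the most broadly expressed Jun protein, comes from a gene without introns. Jund stood at 718, 688 and 821 CPM in enhancer-null CMP and at 420, 294 and 302 CPM in wild-type CMP. These groups did not overlap either. The log2 fold change was 1.13 (SE 0.18, 95% interval 0.72 to 1.55, 2.19-fold), and its adjusted p of 0.05003 fell just outside the threshold of 0.05 in edgeR's test. It passed under 5 of 12 alternatives, with adjusted p from 3.94e-05 (DESeq2) to 0.258. Junb and Jund were the 2 members whose enhancer-null CMP libraries all stood above the wild-type ones, where 11.1% of all tested genes did so. Jun, which encodes c-Jun, the strongest activator of the Jun proteins, stood at 962, 1266 and 1983 CPM against 1144, 760 and 616 CPM. These groups overlapped, and the log2 fold change of 0.74 (SE 0.31) had an adjusted p of 0.388.

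On the Fos side no difference passed the test in CMP. Fos stood at 399, 597 and 977 CPM in enhancer-null and at 1169, 700 and 430 CPM in wild-type CMP, which is nearly the same range in both. Its log2 fold change was −0.22 (SE 0.42, 95% interval −1.20 to 0.75, adjusted p = 0.900). Fosb stood at 55.3, 49.1 and 74.8 CPM against 134.5, 40.2 and 13.6 CPM (adjusted p = 0.982). Wild-type CMP replicate 1 carried the highest value of its group for each of the 8 tested members. Fosl2, a Fos protein without a strong activation domain, ranged from 0.23 to 12.4 CPM in enhancer-null and from 4.19 to 8.79 CPM in wild-type CMP. Atf3, the stress-induced ATF family member, ranged from 0.12 to 26.0 CPM and from 0 to 28.8 CPM. Batf, which lacks an activation domain and acts with IRF partners in lymphoid cells, ranged from 6.14 to 17.4 CPM and from 9.63 to 10.9 CPM. The adjusted p of these 3 genes ran from 0.968 to 0.989, and their intervals were wide (log2 −4.89 to 4.53 for Atf3), so that changes of several-fold were not detectable at this depth and spread. Over the 8 tested members the median log2 fold change was −0.07, beside −0.02 over all genes tested.

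Because Junb and Fos behaved differently in CMP, the 250 bases before their RefSeq starts, and those of Jun, are shown here (RefSeq table of build GRCm38.p6, on the strand of the gene, 5′ to 3′). Capitals mark matches on either strand to 4 short motifs: TATAAA (the TATA box), CCAAT (bound by NF-Y), TGACG (a CRE or ATF core) and TGACNTCA (a full ATF or Jun site). The windows are chr8:84978749-84978998 on the minus strand for Junb, chr4:95052223-95052472 on the minus strand for Jun and chr12:85473640-85473889 on the plus strand for Fos.
Junb: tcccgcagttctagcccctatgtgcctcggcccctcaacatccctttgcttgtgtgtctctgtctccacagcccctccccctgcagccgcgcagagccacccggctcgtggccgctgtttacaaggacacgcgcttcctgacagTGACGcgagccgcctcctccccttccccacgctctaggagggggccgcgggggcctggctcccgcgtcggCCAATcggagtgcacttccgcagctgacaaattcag
Jun: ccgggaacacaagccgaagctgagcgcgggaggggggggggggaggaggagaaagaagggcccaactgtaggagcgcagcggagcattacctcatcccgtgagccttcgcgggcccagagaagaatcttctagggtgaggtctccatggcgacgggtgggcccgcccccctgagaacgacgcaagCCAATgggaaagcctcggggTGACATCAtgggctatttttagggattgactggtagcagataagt
Fos: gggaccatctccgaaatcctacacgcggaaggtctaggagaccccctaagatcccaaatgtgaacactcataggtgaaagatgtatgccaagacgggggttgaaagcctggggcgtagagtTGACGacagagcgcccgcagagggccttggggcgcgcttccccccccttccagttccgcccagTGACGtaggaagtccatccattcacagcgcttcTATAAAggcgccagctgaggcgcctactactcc
In Junb the TGACG match lay 106 to 102 bases and the CCAAT match 36 to 32 bases before the start. In Jun, CCAAT lay 65 to 61 and TGACATCA, a match to TGACNTCA, 45 to 38 bases before the start. Fos held TGACG at 129 to 125 and again at 66 to 62 bases, and TATAAA at 33 to 28 bases. Of the 32536 promoters of the same length in the table, 12.3% held TATAAA, 33.8% CCAAT, 17.9% TGACG and 7.43% TGACNTCA. The AP-1 site itself, TGANTCA, was found in 6.73% of all promoters and in none of the 9 members with an entry, and the CArG box, known as the SRF site, in 1.48% and in none of the 9. TTGCNNAA, a core of C/EBP sites, was present in 9.57% of promoters and, among the members, in the window of Jund alone, whose RefSeq start lies 1210 bases before the GENCODE start of the gene. The table has no entry for Fosl1. A match describes letters in this window and not binding, and bases further upstream were not searched for any motif.

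By annotation (GENCODE vM21, build mm10) Junb is a protein-coding gene on the minus strand of chromosome 8 (84974484 to 84978718), Jund one on its plus strand (70698949 to 70700616), Jun one on the minus strand of chromosome 4 (95049034 to 95052222) and Fos one on the plus strand of chromosome 12 (85473890 to 85477273). Fos overlaps no other gene. An exon of Prdx2 on the opposite strand covers 173 bases of Junb exon, Junos, antisense to Jun, covers 232 bases of Jun, and the antisense gene Gm11175 covers 877 bases of Jund. Whether the authors' counting used strand is not given, so reads of these stretches cannot be assigned to one gene with certainty. Prdx2, a peroxiredoxin, had 445 ± 24.3 CPM in CMP without the enhancer and 503 ± 34.1 in those with it (log2 difference −0.18 ± 0.13 SE, adjusted p = 0.677).

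Ratios within a library do not depend on its scaling. For Jun counts over Fos counts, enhancer-null CMP gave 2.03 to 2.42, wild-type CMP 0.978 to 1.43, enhancer-null LSK 0.942 to 1.25 and wild-type LSK 0.675 to 0.916. The 3 enhancer-null CMP libraries therefore held the highest ratios of the 12, although neither gene alone passed the test. Junb over Fos was 1.02 to 2.28 in enhancer-null CMP, whereas wild-type CMP gave 0.313 to 0.488. In LSK it was 0.874 to 1.05 in enhancer-null and 0.393 to 0.794 in wild-type libraries, so these ranges did not overlap either. Junb over Jun was 0.503 to 0.946 in enhancer-null and 0.314 to 0.341 in wild-type CMP. In LSK it was 0.720 to 1.05 and 0.429 to 1.18, which overlapped. The wild-type CMP libraries thus kept a narrow Junb to Jun proportion while their Fos and Jun levels differed from library to library. Summed per kilobase, the Jun genes (Jun, Junb and Jund) exceeded the Fos genes (Fos, Fosb, Fosl1 and Fosl2) 3.61 to 6.33 times in enhancer-null CMP, 1.48 to 2.50 times in wild-type CMP, 2.25 to 2.55 times in enhancer-null LSK and 1.57 to 1.87 times in wild-type LSK. Not all ratios separated the CMP groups. Jund over Jun was 0.414 to 0.746 in enhancer-null and 0.367 to 0.489 in wild-type CMP, which overlapped. Fosb over Fos overlapped too, at 0.0765 to 0.139 and 0.0316 to 0.115. Junb over Jund did not, at 1.05 to 1.27 and 0.697 to 0.873. These ratios were computed with results of the same libraries known and carry no test. How often ratios of other gene pairs separate the groups was not computed.

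**Figure D2:**
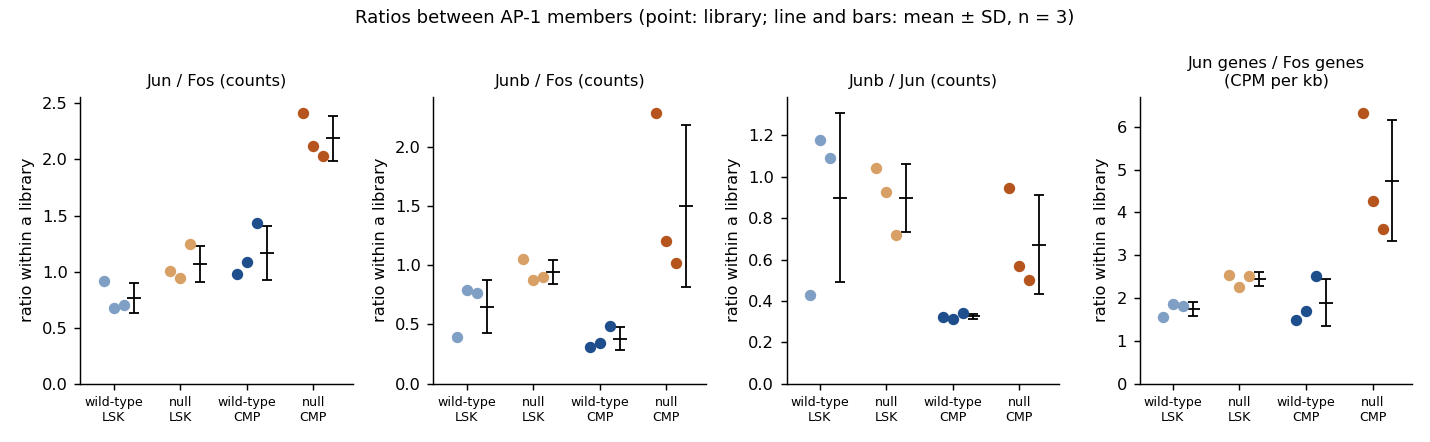
Ratio between AP-1 members within each library (linear axis from 0; points are libraries, lines and bars the mean and SD of 3), as ratios of counts in the first 3 panels and of summed CPM per kb in the last. Enhancer-null CMP gives Jun over Fos of 2.03 to 2.42, above the 0.675 to 1.43 of the other 9 libraries.

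As shares of the summed length-scaled level of the 10 genes, Fos made up 33.8 ± 5.32% in wild-type CMP, 17.3 ± 4.08% in enhancer-null CMP, 34.5 ± 1.53% in wild-type LSK and 28.05 ± 1.46% in enhancer-null LSK. Junb made up 12.8 ± 0.931% in wild-type CMP, and in enhancer-null CMP it made up 24.7 ± 4.58%. Its share in LSK was 22.7 ± 7.08% in the wild type and 27.0 ± 2.03% in enhancer-null cells. Jund took 22.6 ± 4.34% and 29.0 ± 4.0%, and Jun 28.4 ± 1.0% and 27.5 ± 4.24%, in wild-type and enhancer-null CMP. The share of Jun was thus close in both CMP groups, while the Fos share was lower and the Junb share higher in each enhancer-null CMP library than in any wild-type CMP library. The summed level itself was 658 to 1310 CPM per kb in wild-type CMP and 1319 to 1993 in enhancer-null CMP, so that these ranges nearly touched.

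**Figure D3:**
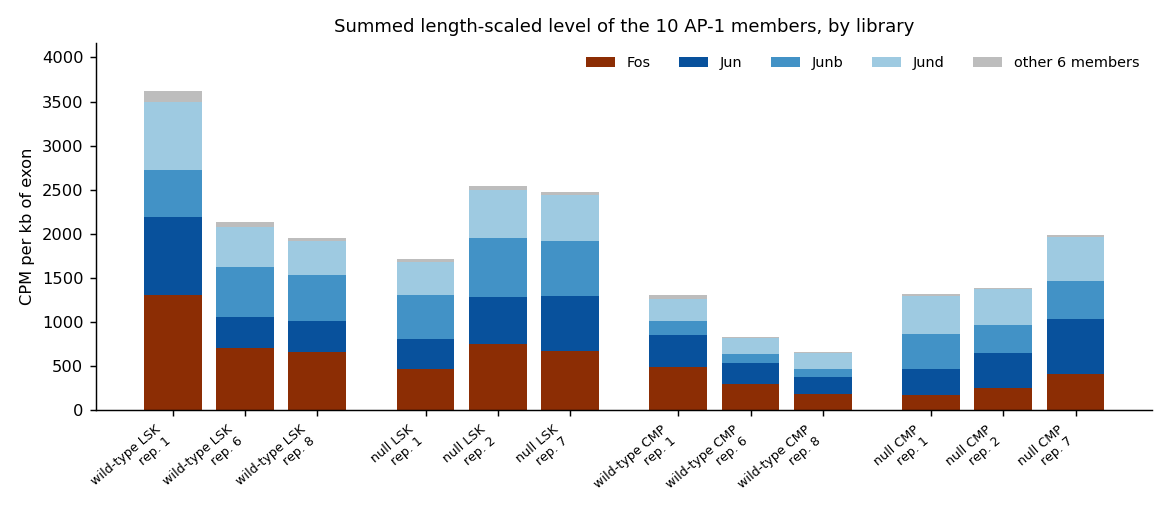
Summed level of the 10 AP-1 members per library (CPM per kb of exon, stacked bars from 0, 1 bar per library), split into Fos, Jun, Junb, Jund and the other 6 members. The bars of wild-type CMP reach 658 to 1310 and have a Junb segment of 12.1% to 13.9%, and those of enhancer-null CMP reach 1319 to 1993 with a Junb segment of 21.7% to 30.01%.

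In LSK cells, where wild-type Cebpa stood at 5.71 ± 2.98 CPM, no AP-1 member passed the test between genotypes, and 0.103% of 11621 genes did. At an unadjusted p under 0.05, 920 genes but no member passed, and DESeq2 called 390 genes and no member. Junb stood at 1153, 1552 and 1431 CPM in enhancer-null and at 1210, 1319 and 1196 CPM in wild-type LSK, with overlapping groups. The log2 fold change was 0.18 (SE 0.12, 95% interval −0.10 to 0.47, adjusted p = 0.762), an interval that ends below the lower bound of the effect in CMP. Fos stood at 1093, 1776 and 1592 against 3081, 1660 and 1568 CPM (log2 difference −0.47 ± 0.29 SE, adjusted p = 0.735). Fosb stood at 86.6, 127.5 and 114.5 against 513, 172 and 109 CPM (log2 difference −1.25 ± 0.54 SE, adjusted p = 0.629). In both genes wild-type replicate 1 was the high library and the rest overlapped. Jun (−0.05), Jund (−0.14), Batf (−0.33), Atf3 (−0.96) and Fosl2 (−1.15) also had negative log2 fold changes, none of them past the test. The median over the 8 members was −0.40, beside −0.01 over all genes. Without wild-type replicate 1 the log2 fold change turned to 0.56 for Jun, 0.23 for Jund and 0.21 for Atf3, and stood at −0.32 for Fosb and −0.53 for Fosl2. That library also had the highest sum of 9 neutrophil marker genes in LSK, at 1346 CPM. Wild-type libraries 6 and 8 had sums of 256 and 133 CPM. The enhancer-null LSK sums were 7.14 to 26.7 CPM, without overlap, but none of 7 tested neutrophil genes passed. The part of neutrophil transcripts in these AP-1 levels was not tested.

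The direct test of whether the genotype effect differed between CMP and LSK called Junb alone among the 8 members. The difference was 1.54 on the log2 scale (SE 0.28, adjusted p = 0.0434, edgeR), where 0.292% of 12687 genes passed. Jund had a difference of 1.30 (SE 0.35, adjusted p = 0.252). All 8 differences were positive, with a median of 0.86 beside 0.01 over all genes, and those of Fos (0.28) and Batf (0.31) were the smallest. The call for Junb held in 2 of 12 fits that left out a library, with adjusted p from 0.00592 to 0.157, among them 0.140 without wild-type CMP replicate 6. With sex as a covariate the adjusted p was 0.0711.

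The step from LSK to CMP within the wild type compared stem and progenitor cells with their myeloid descendants. Junb and Jund fell. Junb went from 1210, 1319 and 1196 CPM in LSK to 366, 239 and 210 CPM in CMP, and Jund from 1298, 750 and 644 CPM to 420, 294 and 302 CPM, with no overlap in either gene. The log2 fold change was −2.15 for Junb (SE 0.22, 4.43-fold lower, adjusted p = 0.00654) and −1.36 for Jund (SE 0.28, 2.57-fold lower, adjusted p = 0.0443). These 2 of 8 members passed, where 4.21% of 12030 genes passed, 2.06% with a lower level. The call for Junb held in all 12 alternatives (adjusted p up to 0.0424, and 0.0379 without wild-type CMP replicate 6), that for Jund in 7 of 12 (adjusted p = 0.156 without wild-type CMP replicate 6). For Jund, leaving out any 1 library but wild-type LSK replicate 6 gave an adjusted p of 0.0521 to 0.175. Jun (−0.95), Batf (−0.82), Fos (−1.41), Fosb (−2.02), Fosl2 (−2.04) and Atf3 (−0.86) had negative log2 fold changes that did not pass, with adjusted p from 0.103 for Fos to 0.813 for Atf3. In 5 of the 8 members every CMP library stood below every LSK library, where 17.0% of all tested genes did so. Markers of maturing cells differed across the same step: erythroid genes summed to 3.72 to 77.5 CPM in LSK and 1390 to 1521 CPM in CMP (3 of 5 tested rose), and monocyte genes to 47.5 to 170 and 910 to 975 CPM (3 of 6 rose). Their part in the fall of Junb and Jund was not tested.

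In enhancer-null mice the same step gave smaller values for Junb and Jund. Junb stood at 1153, 1552 and 1431 CPM in LSK and at 910, 719 and 997 CPM in CMP, which did not overlap. The same held for 3 of the 8 members, with all CMP libraries below all LSK libraries, and for 8.48% of all tested genes. The log2 fold change of Junb was −0.68 (SE 0.16, adjusted p = 0.335), and that of Jund −0.13 (SE 0.16, adjusted p = 0.956). Fos gave −1.20 (SE 0.33, adjusted p = 0.444), near its wild-type value of −1.41. Here edgeR called none of the 8 members and 0% of 11267 genes, 780 genes had an unadjusted p under 0.05, and DESeq2 called 366 genes, Junb (adjusted p = 0.0155) and Fos (0.0202) among them. The genotype and step comparisons share libraries, so their values for one gene are not independent.

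**Figure D4:**
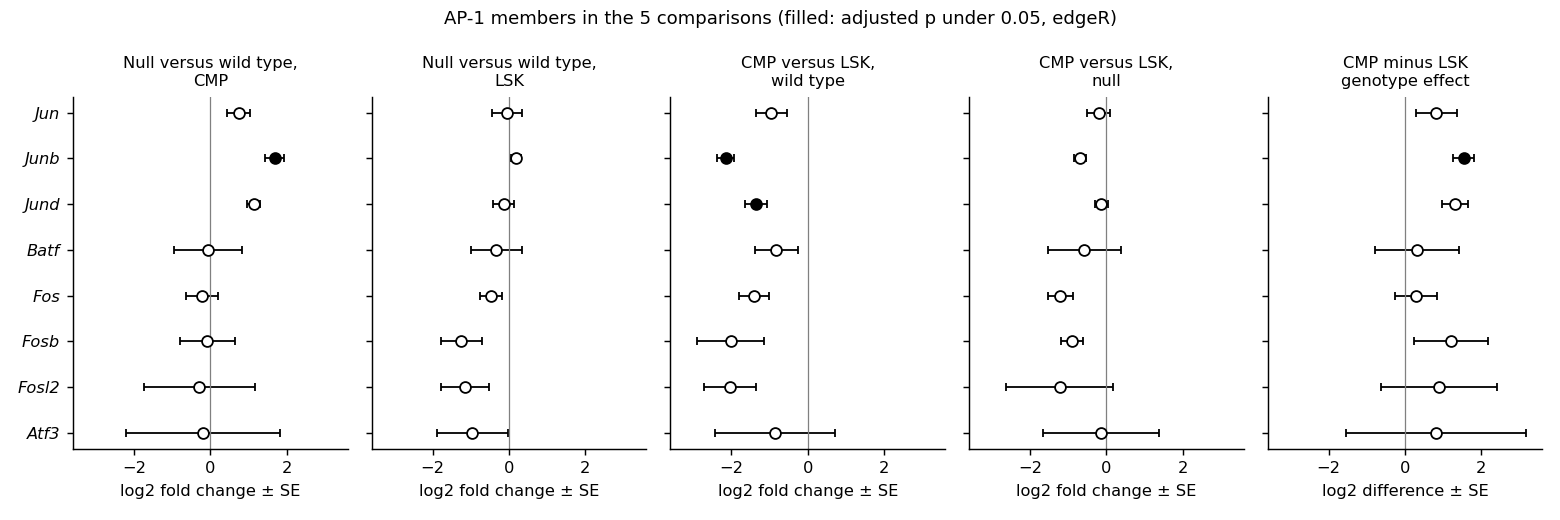
Log2 fold change with its SE (horizontal axis, 1 panel per comparison) of the 8 tested AP-1 members. Filled points passed edgeR's test at an adjusted p under 0.05: Junb in CMP between genotypes (1.69), Junb (−2.15) and Jund (−1.36) between wild-type CMP and LSK, and Junb in the difference of the genotype effects (1.54).

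Similarity of pattern was described over the 12 libraries by Pearson's r of log2 CPM. Genes outside the 10 members were ranked among the 7769 that averaged 20 CPM or more. The libraries share the group structure and a gate, so r describes them together and carries no p. Outside the members, Junb was most like Tsc22d1 (r = 0.964), Ier2 (0.962) and Lax1 (0.957), and Jund was most like Ier2 (0.942), H3f3b (0.920) and Rgs1 (0.919). Fos was closest to Fam69b (r = 0.941), Tsc22d3 (0.919) and Klf4 (0.915), and Jun to Arrdc3 (0.860), Klf6 (0.843) and 2610035D17Rik (0.835). Among the members, r was 0.907 for Junb with Jund, 0.896 for Fos with Fosb, 0.875 for Jun with Jund and 0.619 for Junb with Fos. Ier2, an immediate early gene, was the 1 non-member named in 2 of these sets.

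Genes that share induction signals with AP-1 were read as a list of 18 immediate early genes. In enhancer-null CMP 2 of the 17 tested rose and none fell, where 0.435% of all genes rose. Ier3, an early response gene of cell survival, rose from 42.1 ± 8.37 to 388 ± 48.9 CPM (log2 difference 3.20 ± 0.23 SE, adjusted p = 0.00337), and Ier2 from 329 ± 55.0 to 819 ± 170 CPM (log2 difference 1.32 ± 0.20 SE, adjusted p = 0.0468). The other 15 did not pass, 14 of the 17 had a positive log2 fold change, and their median was 1.1, beside −0.02 over all genes. In LSK 1 of 17 rose, again Ier3, from 136 ± 7.95 to 422 ± 16.2 CPM (log2 difference 1.67 ± 0.14 SE, adjusted p = 0.0128), with a list median of −0.02. In the wild-type step from LSK to CMP 8 of 16 fell and none rose, where 2.06% of 12030 genes fell. The list median was −1.62, beside −0.01 over all genes. They were Egr1, Ier2, Ier3, Nr4a1, Nr4a2, Zfp36, Btg2 and Mcl1. Egr1, a zinc finger factor induced by the same MAP kinase signals, fell from 739 ± 139 to 83.4 ± 35.0 CPM (log2 difference −3.10 ± 0.33 SE, adjusted p = 0.00654), and the orphan nuclear receptor Nr4a1 from 518 ± 161 to 51.4 ± 2.51 CPM (log2 difference −3.29 ± 0.26 SE, adjusted p = 0.00196). The genotype effect differed between gates for Egr1 (2.99, SE 0.55, adjusted p = 0.0459) and Ier3 (1.57, SE 0.25, adjusted p = 0.0196). The summed level of the list was 1997 to 3234 CPM in wild-type CMP, 3794 to 6130 in enhancer-null CMP, 5457 to 9381 in wild-type LSK and 5132 to 6978 in enhancer-null LSK, so wild-type CMP held the lowest values, as it did for Junb.

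Upstream of the AP-1 genes, none of 25 tested genes of the RAS and MAP kinase cascade passed between genotypes in CMP or in LSK. Over all genes 0.529% passed in CMP and 0.103% in LSK. In simulated counts for CMP, 2.27% of log2 changes of 1 were recovered. A lack of calls in this or the following lists therefore does not show that their genes were unchanged. The smallest p in CMP belonged to Rps6ka3, which encodes the kinase RSK2 (19.5 ± 19.8 in wild-type and 106 ± 74.2 CPM in enhancer-null cells, adjusted p = 0.305). In LSK it belonged to Mapk9, which encodes the Jun kinase JNK2 (adjusted p = 0.589), and Map2k4, a kinase that activates JNK (adjusted p = 0.593). None of the 6 genes for SRF, its ternary complex partners and its MKL cofactors passed. In CMP the smallest p there were those of Elk3 (adjusted p = 0.393) and Elk1 (0.572), and in LSK those of Mkl1 (0.867) and Elk1 (0.932). The dual specificity phosphatases switch MAP kinases off. None of 8 tested in CMP or 7 in LSK passed. Dusp6, the ERK phosphatase, stood at 113 ± 16.0 against 29.4 ± 22.8 CPM in wild-type and enhancer-null CMP (adjusted p = 0.370) and at 200.1 ± 80.7 against 75.9 ± 16.4 CPM in LSK (adjusted p = 0.317). The smallest p of the list were those of Dusp2 in CMP (adjusted p = 0.259) and Dusp6 and then Dusp1 in LSK (0.499 for Dusp1). In the wild-type step Dusp2 fell (log2 difference −1.68 ± 0.14 SE, adjusted p = 0.00286). Of 6 genes for turnover and cofactors of Jun proteins none passed between genotypes. Itch, the ubiquitin ligase of JunB and c-Jun, had an adjusted p of 0.452 in CMP and 0.618 in LSK, followed in LSK by Rfwd2, also called COP1 (0.730).

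Of 22 other basic leucine zipper genes tested in CMP, 1 rose, where 0.435% of all genes rose. Nfe2, the p45 subunit that pairs with small Maf proteins in erythroid cells and megakaryocytes, rose from 122 ± 21.7 to 309 ± 37.1 CPM (log2 difference 1.34 ± 0.20 SE, adjusted p = 0.0459). It also fell in the wild-type step from LSK to CMP (log2 difference −1.06 ± 0.19 SE, adjusted p = 0.0282), and its genotype effect differed between gates (1.52, SE 0.26, adjusted p = 0.0317). In LSK none of 23 passed between genotypes, and the smallest p were those of Jdp2, a Jun dimerization protein (44.7 ± 27.4 against 11.1 ± 7.46 CPM, adjusted p = 0.519), and Atf7 (adjusted p = 0.648). Genes known as AP-1 targets in other cells gave no call: none of 10 tested passed between genotypes in either gate. Over all genes 0.529% passed in CMP and 0.103% in LSK, so this does not show that the targets were unchanged. The smallest p in CMP were those of Cd44, an adhesion receptor (310 ± 44.9 against 175 ± 13.9 CPM, adjusted p = 0.106), and Cdkn1a, which encodes the cell cycle inhibitor p21 (49.3 ± 7.31 against 114 ± 21.7 CPM, adjusted p = 0.114), and in LSK those of Tgfb1 (0.519) and Ccnd1 (0.574). Their directions in CMP were opposite.

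Heat shock genes respond to handling and temperature, and some of the signals that induce AP-1 genes induce them too. In CMP none of 10 tested passed between genotypes, where 0.529% of all genes did. All 10 log2 fold changes were negative and the median was −0.57. The smallest p were those of Hspa8 (7983 ± 571 in wild-type and 5879 ± 699.8 CPM in enhancer-null CMP, adjusted p = 0.151) and Hspe1 (adjusted p = 0.245), and in LSK those of Hspd1 (0.659) and Hspa1b (0.782). The summed level was 14400 to 17690 CPM in wild-type CMP, 10289 to 12845 in enhancer-null CMP, 10555 to 12561 in wild-type LSK and 10934 to 12354 in enhancer-null LSK. In the wild-type step Hspa8 and Hspd1 rose (log2 fold change 0.54 and 1.01, adjusted p = 0.0182 and 0.0125).

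Summed levels of several marker lists did not overlap between the CMP groups, as was the case for Junb. The sums of mast cell and basophil, megakaryocyte, T and NK cell, and stromal and endothelial genes were higher in enhancer-null CMP. That of monocyte genes was lower. Of single genes tested in CMP, 11.1% also stood higher in every enhancer-null library than in any wild-type one. The share of non-overlapping sums over other lists of genes was not computed. Over all genes tested in CMP, 0.529% passed the test. The 7 mast cell and basophil genes summed to 1312 to 1744 CPM in enhancer-null and 109 to 309 CPM in wild-type CMP, and 1 of 6 tested rose (Cpa3), while the fitted direction was up in 3 of the 6 and down in 3. The 6 monocyte genes summed to 68.5 to 192 against 910 to 975 CPM, and 2 of 6 fell (F13a1 and Ms4a6c). The 9 neutrophil genes summed to 3.96 to 27.4 against 26.4 to 2109 CPM, with no call in 8 tested. The highest of these sums belonged to wild-type library 1, while libraries 6 and 8 had 256 and 26.4 CPM. The part of these cells in the Junb result was not tested. In enhancer-null CMP the basophil marker Prss34 was at 0 counts in all 3 libraries. Erythroid genes summed to 586 to 2122 against 1390 to 1521 CPM, megakaryocyte genes to 143 to 260 against 77.1 to 118 CPM, B cell genes to 28.6 to 75.8 against 26.9 to 131 CPM, T and NK cell genes to 259 to 434 against 76.9 to 143 CPM, and stromal and endothelial genes to 127 to 206 against 44.97 to 94.1 CPM. Of these 5 lists only Lat, a T cell adaptor that mast cells and platelets also express, passed, with a higher level in enhancer-null CMP. The fitted direction was up in 3 and down in 3 of 6 tested megakaryocyte genes (median log2 fold change 0.03). It was up in the 2 of 7 T and NK cell genes that could be tested, and in 3 of 6 stromal and endothelial genes. Erythroid and B cell genes each had 1 up and 4 down of 5 tested. Cd3e was at 0 counts in all 3 enhancer-null CMP libraries, as were Col1a1, Cdh5 and Ms4a1.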

How the data were processed

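Per the labels' protocols, RNA isolated with Trizol and a carrier was turned into cDNA with a low-input kit, and read pairs of 75 bp were sequenced. The authors deposited 1 table of raw read counts by gene symbol for each library. The submitters' processing notes name TopHat2 2.0.4, TopHat, Bowtie, HTSeq and the mm10 build. No source used here gives the annotation, the counting mode or the strand setting. Rows without a gene name (37.2% to 46.9% of counts) were dropped.

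Joining the 12 deposited tables kept 22779 symbols present in all, plus 607 matched through older names in RefSeq's gene table (GRCm38.p6), which left out 0.0693% to 0.297% of a library's gene counts. Between replicates of a group, chi-square per degree of freedom was 43.0 to 183, so each library entered as 1 replicate. A floor of 3 counts equals 0.0611 to 0.487 CPM, and floors cover counting error only. Tests used edgeR 4.0.16 in R 4.3.3: quasi-likelihood, robust, TMM scaling, filterByExpr (minimum count 10), and p adjusted over all genes by Benjamini-Hochberg with a threshold of 0.05. Each fit held the 6 libraries it compared, or all 12 for the difference of genotype effects. SE is the log2 fold change divided by the root of F, and 95% intervals use the fit's degrees of freedom. Levels are CPM scaled by TMM over 12 libraries, and levels per kilobase use exon lengths of GENCODE vM21, a mm10 annotation. For the CMP comparison, simulated counts of 11115 genes with 200 changed gave 2.27% recovery of log2 changes of 1, 37.5% of 2, 38.6% of 3 and 62% of 4, with 9.46% false calls. Alternatives were RLE scaling, no low-count filter, DESeq2 1.42.0, identical symbols only, all 12 libraries in 1 fit, sex as a covariate, the replicate number as a block, each library left out, and the longest transcript as length.

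Named genes were the 10 AP-1 members, every gene of each pathway list past the threshold in a genotype comparison or else the 2 with the smallest p, and the 3 genes most like Fos, Jun, Junb and Jund. Some genes that this rule took are not reported here. List members given for the step and the difference of effects, Prdx2 and marker genes were added after their values were seen. The members and lists were chosen with earlier results of these data known.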

Additional observations from a re-analysis of the deposited data

Results flagged for a closer look

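The genotype effect on Junb differed between the gates: its log2 fold change between enhancer-null and wild-type libraries was larger in CMP than in LSK by 1.54 (edgeR quasi-likelihood test of the difference itself, adjusted p = 0.0434). The adjusted p was 0.0711 with sex as a covariate, and the call held in 2 of 12 fits that left out a library (0.00592 to 0.157). Each enhancer-null CMP library stood above each wild-type CMP library, as was so for 11.1% of all genes tested there, whereas the LSK groups overlapped. Sex was unbalanced between the genotypes. Summed levels of mast cell, monocyte, megakaryocyte, T and NK cell, and stromal markers did not overlap between the CMP groups. Single genes of the mast cell and megakaryocyte lists were split in fitted direction, with 3 up and 3 down of 6 tested in each. Cpa3 passed of 6 mast cell and basophil genes tested, F13a1 and Ms4a6c of 6 monocyte genes, and Lat of 2 T and NK cell genes. Over all genes tested in CMP, 0.529% passed. The part of these cell types in the difference was not tested.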

How the results depend on the processing

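Over 528 alternatives for 40 member results, 460 kept direction and side of the threshold, 23 lost the call, 13 gained one and 32, in 16 results, turned direction. Junb between genotypes in CMP passed in 6 of 12 alternatives (adjusted p 3.32e-06 to 0.202), and the difference of its effects in 6 of 18 (0.00112 to 0.157). Its direction held in each of them. The cause of lost calls was not tested, and 3 libraries a group limit the precision. Members called in CMP were 2 with RLE scaling, no filter, DESeq2, identical symbols or all 12 libraries, 0 with sex as a covariate and 0 to 1 without a library. In the wild-type step they were 5 with DESeq2 and 1 to 3 without a library, in the enhancer-null step 2 with DESeq2, and in the difference of effects 0 with sex as a covariate and 0 to 1 without a library. Genes called in CMP (62) were 269 without the filter, 893 with DESeq2 (530 higher, 363 lower), 232 with all 12 libraries, 31 with sex and 7 to 91 without a library, lowest without wild-type replicate 6 or 8. In LSK (12) they were 39, 390, 26, 3 and 1 to 21. In the wild-type step (507) DESeq2 gave 2111 and leaving out a library 56 to 882, in the enhancer-null step (0) no filter gave 9, DESeq2 366 and all 12 libraries 37, and for the difference (37) no filter gave 68, DESeq2 243 and leaving out a library 12 to 107. The Junb level per kilobase over the longest transcript moved by more than 1 SD in 3 groups, as did 8 other member levels of 40.

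The results that turned direction had no call under any alternative. Leaving out 1 library each gave, between genotypes in CMP, log2 fold changes of −0.63 to 0.19 for Fos, −0.58 to 1.13 for Fosb, −1.90 to 0.24 for Fosl2, −1.69 to 1.21 for Atf3 and −0.74 to 0.20 for Batf, and sex as a covariate gave 0.049 for Fosb. In LSK the ranges were −0.31 to 0.56 for Jun, −0.36 to 0.23 for Jund, −1.92 to 0.21 for Atf3 and −0.57 to 0.048 for Batf. Atf3 ran from −2.34 to 0.28 in the wild-type and from −1.62 to 0.83 in the enhancer-null step, where Jun ran from −0.52 to 0.013. The difference of effects ran from −0.13 to 0.65 for Fos, −0.72 to 1.34 for Fosl2, −0.70 to 2.16 for Atf3 and −0.45 to 0.56 for Batf.

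Replicate numbers were tested as a block between CMP and LSK, since both gates carry the same numbers. The deviations of same-numbered libraries correlated at −0.108 to 0.162, so the numbers were not taken as pairs. The sex read from Xist and Y-linked genes was the same in both gates for each number. Whether same-numbered libraries are pairs was therefore not settled. With the replicate block in edgeR the wild-type step called 137 genes and 4 members. These were Junb (adjusted p = 0.0241), Jund (0.0347), Fos (log2 fold change −1.46, 0.0301) and Fosb (−2.30, 0.0398). Fos and Fosb had no call in the fit without the block. With the block the enhancer-null step called 0, and the difference of effects 7 genes and 0 members (Junb 1.58, adjusted p = 0.133, while Fosl2 turned to −0.18). No paired analysis was possible between genotypes because they share only the number 1.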
